A study of Mus musculus with 8 samples.

Results

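Genes of the replicative helicase and of DNA precursor synthesis were measured in whole lungs of mice that had received a bone marrow transplant and then spent 3 days in hypoxia. The members are 10 genes chosen by symbol from the 23284 rows of the deposited gene table. They are the helicase subunit genes Mcm2, Mcm3, Mcm4, Mcm5, Mcm6 and Mcm7, the sliding clamp gene Pcna, the ribonucleotide reductase genes Rrm1 and Rrm2, and the thymidylate synthase gene Tyms. All 10 were in the table and all 10 passed the filter on low values.

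All recipients were C57BL/6 wild-type (WT) mice. For 4 libraries the donor marrow was triply n/i/eNOS-/-, which means that it lacked the neuronal, inducible and endothelial nitric oxide synthases (NOS-null marrow). For the remaining 4 libraries the donor marrow was WT (WT marrow). Recipient strain, transplantation and hypoxia were shared, and the NOS genotype of the donor marrow was what differed. The recipients' own lung cells kept the NOS genes. The labels give no age, sex, conditioning or share of donor cells. Group membership follows each sample's title and description, since the text on the series' design writes NOS-null marrow for each group. The descriptions place both groups in 3 days of hypoxia, and lungs without hypoxia were not analysed here.

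The MCM proteins form a ring that is loaded on DNA at replication origins before S phase, by the origin recognition complex with Cdc6 and Cdt1. Cdc45 and the GINS complex turn the ring into the working helicase that unwinds DNA ahead of the polymerases, and PCNA is the clamp that holds the polymerases on their template. Ribonucleotide reductase and thymidylate synthase supply deoxynucleotides. Transcription of these genes is known to rise under E2F factors as a cell passes from G1 into S phase. Most cells of an adult lung are out of the cycle, so these transcripts are known in bulk tissue as markers of the cells that are about to replicate DNA.

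Every one of the 10 genes had a lower mean with NOS-null marrow. Mcm2, Mcm3, Mcm5, Mcm6 and Pcna fell, and their means with NOS-null marrow were 50.6, 65.6, 55.7, 66.7 and 74.4% of those with WT marrow. Mcm4, Mcm7, Tyms, Rrm1 and Rrm2 did not pass the test. The calls come from limma on log2(scaled reads + 1), NOS-null marrow minus WT marrow, with p-values adjusted by the Benjamini-Hochberg method across the 14008 genes that were tested, and a threshold of 0.05. In that fit 2.18% of tested genes were called lower, 1.87% higher and 4.05% either way, against 5 of the 10 members lower and 0 higher. The count of 5 ran from 0 to 6 when 1 library was left out, and was 0 in 4 of those 8 fits. A negative change was found for 10 of 10 members and for 49.9% of tested genes. The median log2 change of the members was −0.50, against 0.0005 over all tested genes. Scaled reads are read counts that the authors divided by 1 factor per library, and the log2 scale understates the change of low genes.

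The promoters of the 4 helicase genes that fell are shown because E2F factors and the CCAAT-binding factor NF-Y are known regulators of cell cycle genes. Each stretch is the 160 bases before the RefSeq transcription start (GRCm38.p6), written 5′ to 3′ along the gene. Capitals mark matches to the E2F letters (TTTCCCGC, TTTCGCGC, TTTGCCGC or TTTGGCGC), to CCAAT and to TTTGAA, the letters of the cell cycle homology region, on either strand.
Mcm2, chr6:88898781-88898940, strand -: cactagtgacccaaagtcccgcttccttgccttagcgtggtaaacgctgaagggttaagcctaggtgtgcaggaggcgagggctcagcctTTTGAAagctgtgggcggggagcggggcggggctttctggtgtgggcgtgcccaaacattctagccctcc
Mcm3, chr1:20820313-20820472, strand -: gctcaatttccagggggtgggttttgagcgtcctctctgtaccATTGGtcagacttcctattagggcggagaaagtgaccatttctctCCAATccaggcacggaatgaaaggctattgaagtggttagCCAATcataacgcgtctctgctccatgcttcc
Mcm5, chr8:75109349-75109508, strand +: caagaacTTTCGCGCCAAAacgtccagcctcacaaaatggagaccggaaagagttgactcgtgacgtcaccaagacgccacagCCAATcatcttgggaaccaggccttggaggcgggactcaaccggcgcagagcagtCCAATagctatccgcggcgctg
Mcm6, chr1:128359706-128359865, strand -: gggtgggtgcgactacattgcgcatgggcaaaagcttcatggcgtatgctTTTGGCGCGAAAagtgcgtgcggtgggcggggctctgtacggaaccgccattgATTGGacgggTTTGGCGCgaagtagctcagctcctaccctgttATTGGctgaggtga

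In these stretches Mcm5 and Mcm6 each had a pair of overlapping E2F matches on opposite strands, starting at −153 and −149 in Mcm5 and at −110 and −106 in Mcm6. Mcm6 had a further E2F match at −47. Matching of the window to transcripts did not succeed for Mcm5 and Mcm6, so their offsets are less certain. Mcm3 had its 2 E2F matches after the start, at 19 and 38, outside the stretch printed. Mcm2, the gene with the largest fall among the members, had no E2F match in its window but had TTTGAA at −70. Over windows of 250 bases before and 50 after a start, 9 of the 10 members had an entry in the RefSeq table, Mcm4 being the one without. An E2F match was present for 4 of these 9 members (Mcm3, Mcm5, Mcm6 and Mcm7), and in 2.26% of all 32851 windows. CCAAT was present for 8 of the 9, all but Tyms, and in 37.4% of all windows. TTTGAA was present for 1 of the 9 and in 17.9% of all windows. Such a match is a description of the letters and was not tested as a binding site. Of the genes with an E2F match Mcm7 was not called, and Mcm2 and Pcna were called without a match in their windows.

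Mcm2 (chromosome 6, 88883474 to 88898780, minus strand, GRCm38) encodes the subunit whose amino-terminal tail also binds histones. It stood at 95.3, 97.9, 113 and 136 scaled reads in NOS-null marrow replicates 1 to 4 and at 250.4, 247, 209.9 and 166 in WT marrow replicates 1 to 4. The groups did not overlap, and WT marrow replicate 4 was the lowest of its group while NOS-null marrow replicate 4 was the highest of its own. The means were 111 ± 18.7 (SD, n = 4) and 218 ± 39.3 (log2 change −0.97, SE 0.16, 95% interval −1.33 to −0.61, limma adjusted p = 0.0182).

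Mcm5 (chromosome 8, 75109569 to 75128439, plus strand) encodes the neighbour of Mcm2 in the ring, and the passage between these neighbours is known as the gate through which DNA enters. It stood at 96.4, 116, 127 and 140.3 with NOS-null marrow and at 249, 249, 201 and 161 with WT marrow. Its groups were also separate, with the same replicates nearest to each other. Means were 119.9 ± 18.6 and 215 ± 42.8 (log2 change −0.83, SE 0.17, 95% interval −1.20 to −0.46, limma adjusted p = 0.0314).

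Mcm3 and Mcm6, both on chromosome 1, fell by less. Mcm3 (20802968 to 20820312, minus strand) stood at 195, 199.9, 186 and 227 against 349.7, 320.3, 315 and 247. Its log2 change was −0.60 (SE 0.12, limma adjusted p = 0.0309). Mcm6 (128331590 to 128359664, minus strand) stood at 220.4, 199.9, 218 and 251 against 357, 339, 356 and 282. Its log2 change was −0.58 (SE 0.11, limma adjusted p = 0.0245). In both genes each NOS-null marrow value lay below each WT marrow value.

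Mcm4, Mcm6 and Mcm7 form the core that is known to unwind DNA by itself in the test tube, and of these Mcm4 and Mcm7 did not pass. Mcm4 (chromosome 16, 15623897 to 15637400, minus strand) was the steadiest member with NOS-null marrow, at 311, 298, 311 and 314. With WT marrow it stood at 414, 403, 372 and 320.5, so its groups were separate although the lowest WT marrow value was close to the highest of the other group. Its log2 change was −0.28 (95% interval −0.49 to −0.07, limma adjusted p = 0.1). Mcm7 (chromosome 5, 138164583 to 138172422, minus strand) stood at 210.2, 239, 223 and 250.2 against 305, 315, 308 and 242. Its groups overlapped through WT marrow replicate 4 alone (log2 change −0.34, 95% interval −0.58 to −0.10, limma adjusted p = 0.0932). The Mcm7 locus overlaps Cops6 and Ap4m1 on the opposite strand and holds the microRNA genes Mir25, Mir93 and Mir106b. Whether the authors' counting used strand is not given in the sources used here, so Mcm7 values are less certain.

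Pcna (chromosome 2, 132249162 to 132253314, minus strand) encodes the sliding clamp of replication and repair. It stood at 776, 889, 952 and 983 with NOS-null marrow and at 1345, 1167, 1271 and 1054 with WT marrow. The groups did not overlap. Means were 900.2 ± 91.5 and 1209 ± 127 (log2 change −0.43, SE 0.10, 95% interval −0.65 to −0.20, limma adjusted p = 0.0465). Of the 5 called members Pcna had the largest adjusted p. In all, 6 of the 10 members had every NOS-null marrow value below every WT marrow value, and 9.29% of all tested genes had this order (17.1% were separate in either direction).

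Ribonucleotide reductase makes deoxyribonucleotides, with Rrm1 as its large subunit and Rrm2 as the small subunit of S phase. Rrm1 (chromosome 7, 102441695 to 102469771, plus strand) stood at 359, 415, 392.4 and 454 with NOS-null marrow and at 595, 481, 425 and 383 with WT marrow. Rrm2 (chromosome 12, 24708241 to 24714146, plus strand) stood at 56.4, 108, 92.7 and 104 against 132, 128, 103 and 79.4. In both genes the groups overlapped, WT marrow replicate 4 was the lowest of its group and NOS-null marrow replicate 1 the lowest of all. The log2 changes were −0.20 for Rrm1 (95% interval −0.50 to 0.10, limma adjusted p = 0.351) and −0.31 for Rrm2 (95% interval −0.82 to 0.21, limma adjusted p = 0.411). Without NOS-null marrow replicate 1 the change of Rrm2 was −0.10, and without WT marrow replicate 1 that of Rrm1 was −0.08. Both intervals include 0 and also falls of the size seen for Pcna.

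The balance of the reductase subunits was compared on the FPKM scale, which divides by transcript length. Rrm2 to Rrm1 ratios were 0.302, 0.501, 0.454 and 0.442 with NOS-null marrow and 0.427, 0.513, 0.468 and 0.399 with WT marrow. The mean log2 ratio differed by −0.11 (two-sided exact permutation test, p = 0.686, n = 4 per group, adjusted p = 0.686 over 2 ratios). Rrm2b, the small subunit that p53 is known to induce outside S phase, had Rrm2b to Rrm2 ratios of 4.43, 2.23, 2.03 and 1.77 against 1.59, 1.49, 1.99 and 2.32. That difference was 0.42 on the log2 scale (two-sided exact permutation test, p = 0.257, n = 4 per group, adjusted p = 0.514), where the smallest p the design allows is 0.0286. NOS-null marrow replicate 1 held the lowest of the first ratio and the highest of the second. Without it the differences were 0.05 and 0.14.

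Tyms (chromosome 5, 30058202 to 30073617, minus strand) encodes the enzyme that makes thymidylate from deoxyuridylate. It stood at 109.7, 106, 106 and 208 with NOS-null marrow and at 196, 155, 201 and 266 with WT marrow. NOS-null marrow replicate 4 lay among the WT marrow values and the other 3 lay below all of them. The means were 133 ± 50.2 and 204 ± 45.6 (log2 change −0.66, SE 0.23, limma adjusted p = 0.114). Without NOS-null marrow replicate 4 Tyms fell (log2 change −0.90, limma adjusted p = 0.0227). WT marrow replicate 4 was the highest of its group for Tyms and the lowest for the other 9 members. The annotation lists a processed pseudogene Tyms-ps on chromosome 10 and Pcna-ps1 and Pcna-ps2 on chromosomes X and 19. Tyms-ps had at most 8.51 scaled reads in any library. Reads can be split between a gene and such copies, so Tyms and Pcna values are less certain.

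**Figure D1:**
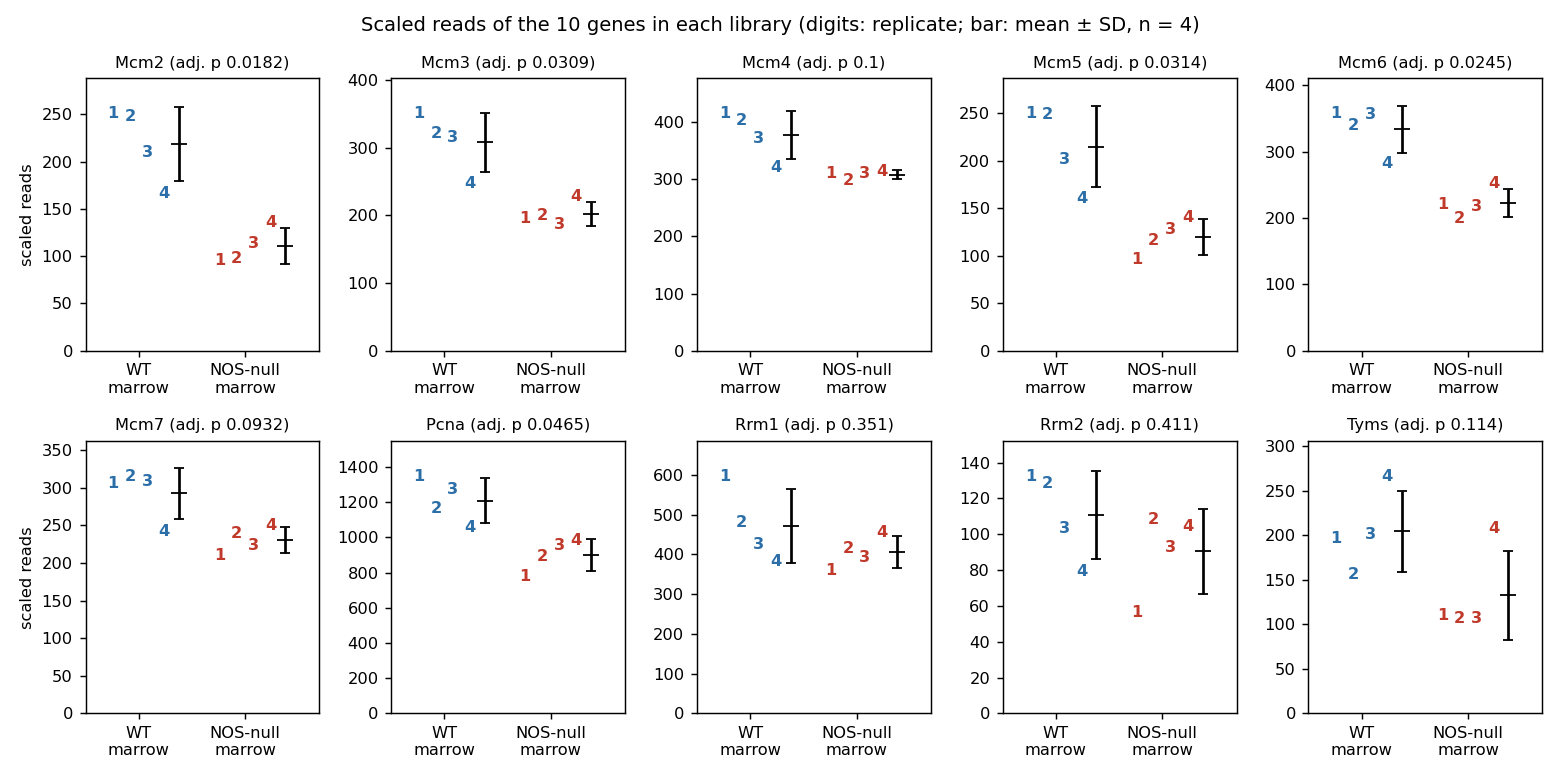
Scaled reads (vertical axis, linear, from 0) of each member in the 8 libraries. Digits are replicate numbers, blue for WT marrow and red for NOS-null marrow, and black bars are the mean ± SD of 4 libraries. The groups are separate for Mcm2 to Mcm6 and Pcna and overlap for Mcm7, Rrm1, Rrm2 and Tyms.

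Libraries ranked alike for most members. WT marrow replicate 1 was the highest of its group for 8 members and WT marrow replicate 4 the lowest for 9. NOS-null marrow replicate 4 was the highest of its group for 9 members, and replicate 1 the lowest for 6. The mean deviation of the 10 members from their own means over the 8 libraries was −0.45, −0.29, −0.27 and −0.03 on the log2 scale in NOS-null marrow replicates 1 to 4. It was 0.43, 0.32, 0.26 and 0.03 in WT marrow replicates 1 to 4. Replicate 4 of each group therefore lay nearest the middle. Among 13101 non-member genes with a mean of at least 20 scaled reads, the licensing factor gene Cdc6 followed this mean deviation most closely (Pearson r = 0.989 over the 8 libraries). The next were the chaperonin subunit gene Cct3 (0.982), the peptidase gene Dpp4 (0.979), the mRNA 3′ end processing gene Cstf2 (0.978), Tmem41b (0.978) and the ribosome biogenesis gene Heatr1 (0.976). These r values include the difference between the groups.

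Levels were compared between genes on the FPKM scale. Pcna was highest, at 102 ± 10.4 FPKM with NOS-null marrow against 137 ± 14.4 with WT marrow. With WT marrow the order below it was Mcm7 (15.9 ± 1.85), Rrm1 (14.8 ± 2.90), Mcm6 (14.8 ± 1.56), Mcm3 (13.7 ± 1.94) and Mcm4 (13.3 ± 1.48). Mcm2 (8.23 ± 1.48), Mcm5 (7.98 ± 1.59), Tyms (6.79 ± 1.51) and Rrm2 (6.70 ± 1.48) followed. Neighbours in this order below Pcna differed by less than their SD, except at the step from Mcm4 to Mcm2. With NOS-null marrow Rrm1 (12.7 ± 1.252), Mcm7 (12.6 ± 0.96), Mcm4 (10.9 ± 0.26), Mcm6 (9.84 ± 0.94) and Mcm3 (8.99 ± 0.79) were above Rrm2 (5.47 ± 1.43), Mcm5 (4.45 ± 0.69), Tyms (4.40 ± 1.67) and Mcm2 (4.17 ± 0.70).

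The MCM ring holds 1 copy of each subunit, but their transcripts were unequal. The FPKM values of the 6 genes summed to 48.0, 49.3, 50.01 and 56.3 in NOS-null marrow replicates 1 to 4. They summed to 81.3, 79.2, 75.05 and 60.2 in WT marrow replicates 1 to 4. Mcm2 made up 8.16 ± 0.81% of this sum with NOS-null marrow against 11.1 ± 0.70% with WT marrow, and Mcm5 8.71 ± 0.90% and 10.7 ± 0.93%. Mcm4 made up 21.4 ± 1.31 and 18.04 ± 0.55%, and Mcm7 24.7 ± 1.20 and 21.6 ± 0.83%. The shares of Mcm2, Mcm4, Mcm5 and Mcm7 did not overlap between the groups, while those of Mcm3 and Mcm6 did. The highest gene stood 2.66 to 3.54 times above the lowest with NOS-null marrow and 1.80 to 2.25 times with WT marrow. The shares of a library add up to its whole sum, so larger falls of Mcm2 and Mcm5 raise those of Mcm4 and Mcm7. Mcm4 and Mcm7 themselves had lower means with NOS-null marrow. These shares were not tested, and their separation has no counterpart over all tested genes to set beside it.

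**Figure D2:**
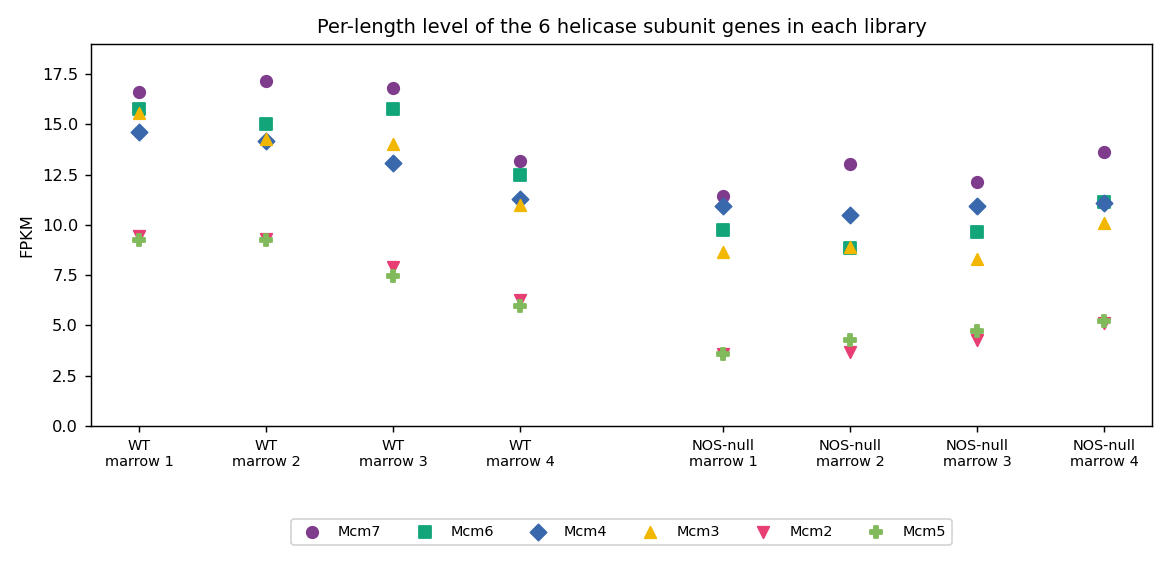
FPKM (vertical axis, linear, from 0) of the 6 MCM genes in each library, with WT marrow on the left and NOS-null marrow on the right. Mcm2 and Mcm5 lie below the other 4 genes in every library, at 3.57 to 5.20 FPKM with NOS-null marrow and 5.96 to 9.44 with WT marrow.

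Genes that load and start the helicase were measured beside the members, as lists chosen for their role. Of 9 tested genes of origin licensing, 1 fell, and the median log2 change was −0.10. The gene that fell was Cdc6, the loading ATPase, at 15.4, 16.7, 19.7 and 23.9 scaled reads against 52.7, 41.2, 36.5 and 27.4 (log2 change −1.003, SE 0.24, limma adjusted p = 0.047). These are low values with separate groups. Mcmbp (0.20, adjusted p = 0.175) and the origin recognition gene Orc5 (−0.20, adjusted p = 0.181) did not pass. Cdt1, which loads the ring together with Cdc6, stood at 32.8 ± 9.97 against 44.7 ± 15.7 (adjusted p = 0.397). Of 11 tested genes of helicase activation, all 11 had a negative change (median −0.33) and 1 fell, Cdc45 (33.04 ± 2.92 against 55.6 ± 9.16, log2 change −0.72, adjusted p = 0.0468). The GINS genes Gins2 (−0.92, adjusted p = 0.0734) and Gins1 (−0.76, adjusted p = 0.0994) did not pass, nor did Mcm10 (−0.74, adjusted p = 0.273). The related genes Mcm8 and Mcm9, which act in repair rather than in the ring, stood at −0.20 and 0.51 (adjusted p = 0.561 and 0.162).

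Of 18 genes of the polymerases and the clamp loader, all 18 had a negative change (median −0.32), 1 fell and 17 did not pass. Pole4, a small histone-fold subunit of polymerase epsilon, fell from 367 ± 14.6 to 227 ± 54.6 (log2 change −0.72, SE 0.15, limma adjusted p = 0.0338). Pole2 (−0.94, adjusted p = 0.0622), the clamp loader gene Chtf18 (−0.97, adjusted p = 0.0629) and Rfc4 (−0.58, adjusted p = 0.0752) had separate groups but did not pass. Of 12 genes of other fork factors none passed with limma, 4 were lower at an unadjusted p under 0.05 (13.3% of all tested genes), and the median was −0.17. Their smallest p-values were those of Timeless (−0.48, adjusted p = 0.0658), the DNA ligase gene Lig1 (−0.47, adjusted p = 0.0868) and Wdhd1 (−0.48, adjusted p = 0.108).

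The wider supply of nucleotides held 29 tested genes, of which 24 had a negative change, 2 fell and none rose (median −0.29). Nme1, a nucleoside diphosphate kinase gene, fell from 565 ± 57.3 to 371 ± 53.9 (log2 change −0.61, SE 0.12, limma adjusted p = 0.0257). Atic, which completes purine ring synthesis, fell from 418 ± 32.9 to 317 ± 28.9 (log2 change −0.40, SE 0.09, limma adjusted p = 0.0466). Dtymk, the thymidylate kinase gene that acts after Tyms, stood at 159 ± 30.2 against 237 ± 21.5 (adjusted p = 0.0515). Impdh2 (−0.37, adjusted p = 0.0629) and Gart (−0.31, adjusted p = 0.0721) of purine synthesis also did not pass.

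Of 27 regulators of the G1 to S transition, 3 rose and 1 fell. Cdkn1a, the p53 target that inhibits cyclin-dependent kinases, rose from 1427 ± 180.2 to 4584 ± 1250 scaled reads (log2 change 1.65, SE 0.18, limma adjusted p = 0.00253). E2f2, an E2F factor gene that is also expressed in erythroid cells, rose from 315 ± 7.25 to 632 ± 106 (log2 change 0.99, adjusted p = 0.00293). Rbl2, which encodes the pocket protein p130 of resting cells, rose from 411 ± 44.0 to 595 ± 82.8 (log2 change 0.53, adjusted p = 0.0364). Cdk4, the kinase gene of G1, fell from 850.5 ± 61.2 to 612 ± 60.8 (log2 change −0.48, adjusted p = 0.0263). The other 23 did not pass, among them Cdkn1c (0.53, adjusted p = 0.089). Whichever single library was left out, Cdkn1a and E2f2 still passed.

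Of 7 genes that restore chromatin behind the fork, all 7 were negative (median −0.19) and none passed with limma. In this list 2 were lower at an unadjusted p under 0.05 (13.3% of all tested genes). Uhrf1, which recruits the maintenance DNA methyltransferase, had the smallest p-value (−1.10, adjusted p = 0.0592). Of 11 genes of replication stress and repair none passed with limma and 2 were lower at an unadjusted p under 0.05, the exonuclease gene Exo1 (−0.97, adjusted p = 0.0953) and the checkpoint kinase gene Chek1 (−0.80, adjusted p = 0.158). All 24 mitosis genes had a negative change, with a median of −0.47. Without NOS-null marrow replicate 1 this median was −0.23 with 22 of 24 negative. The members' median was −0.47 in that fit, against −0.50 with all libraries. None of the mitosis genes passed with limma, and 3 were lower at an unadjusted p under 0.05 (13.3% of all tested genes). None had separate groups, beside 17.1% of all tested genes in either direction. Both 3 of 24 mitosis genes and 2 of 11 repair genes are near the share of 13.3%. Mad2l1 (−0.54, adjusted p = 0.102), Ccnb1 (−0.72, adjusted p = 0.152) and Ccnb2 (−0.48, adjusted p = 0.162) had the smallest p-values of the mitosis list. The mean deviation of the mitosis genes was −0.99 in NOS-null marrow replicate 1, against −0.01 to 0.08 for the other 3 libraries of that group. It was −0.34 for WT marrow replicate 4 and 0.23 to 0.57 for the rest of the group. Whether the members and the mitosis genes differed in their change was not tested. Over all 150 tested genes of these lists 6 fell (4.0%) and 3 rose (2.0%), beside 2.18 and 1.87% of all tested genes.

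**Figure D3:**
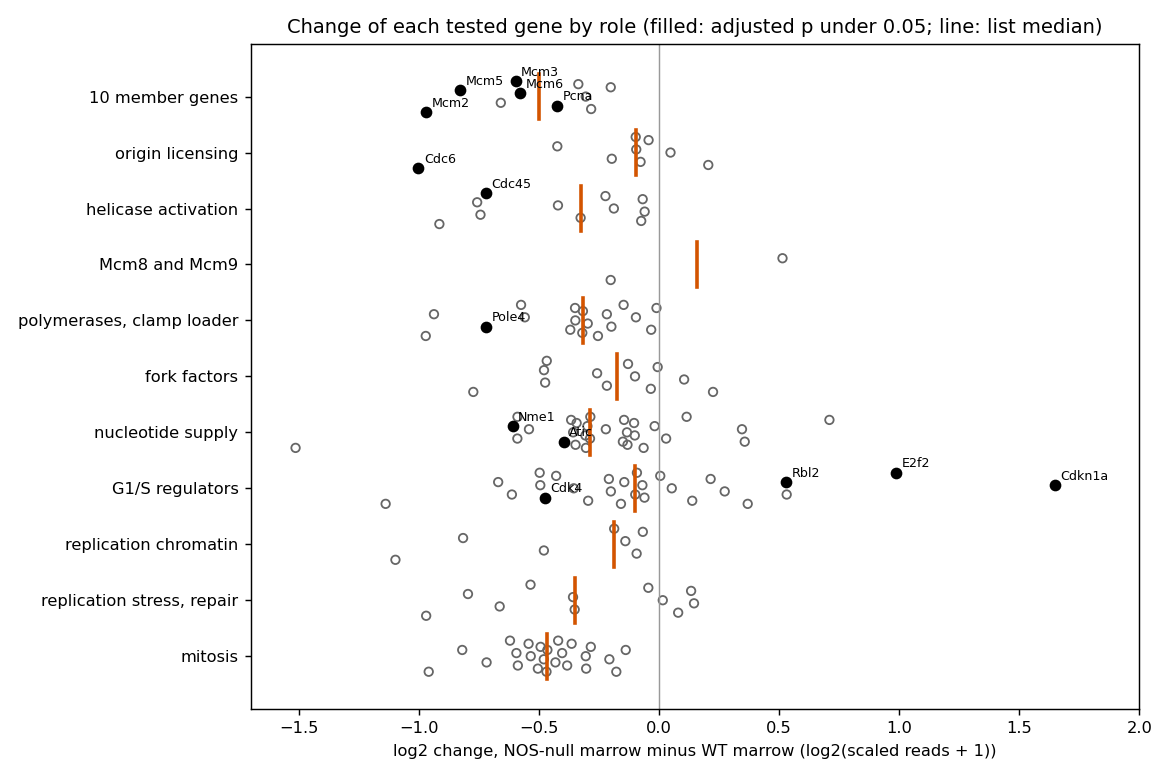
Log2 change (horizontal axis, NOS-null marrow minus WT marrow) of each tested gene, 1 row per role. Filled points passed an adjusted p of 0.05, open points did not, and orange lines are list medians. All 10 members, all 11 helicase activation genes, all 18 polymerase and clamp loader genes and all 24 mitosis genes lie left of 0.

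Libraries summed to 7767065 to 8625142 scaled reads, and markers of alveolar, airway, endothelial and mesenchymal cells were all present. Nos2, the inducible synthase gene, stood at 13.3 to 43.5 with NOS-null marrow and 87.4 to 115 with WT marrow, while Nos3 overlapped (177 to 219 against 171 to 207) and Nos1 was at 0 in all libraries but one. On the first principal component NOS-null marrow replicates 1 and 2 lay farther from WT marrow than replicates 3 and 4. In bulk tissue fewer cells of a type and less RNA per cell cannot be told apart.

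Summed levels of several marker lists of blood and vessel cells also differed between the groups, some lower and some higher with NOS-null marrow. The 3 B cell markers (Cd79a, Cd79b and Ms4a1) summed to 63.6 to 698 scaled reads with NOS-null marrow and 959 to 1867 with WT marrow, with 0 of 3 passing. The 4 NK cell markers summed to 78.3 to 129 against 194 to 278, and Gzma and Klrb1c fell. The 4 smooth muscle markers summed to 13649 to 16888 against 25426 to 28863, and 3 of 4 fell. Sums of the 4 endothelial markers overlapped (17565 to 20625 against 17833 to 18776). Of these 4 markers 1 fell, Emcn, and 2 had a negative change. Pecam1 (0.18) and Cdh5 (0.14) had positive changes. The 4 stem and progenitor markers summed to 3099 to 4087 against 4538 to 5154, with 0 of 4 passing. Cd34 made up most of these sums. Kit, Cd34 and Myb had negative changes and Flt3 a positive one (0.34). The 5 erythroid markers summed to more, at 5320.2 to 7514 against 2820.3 to 3313. Alas2, the only one of them that rose, made up most of these sums. Of the 4 tested, Tfrc alone had a negative change (−0.45, limma adjusted p = 0.067), and its groups were separate. The 3 neutrophil markers summed to 3129 to 72362 against 992 to 2834, with 0 of 3 passing. The upper value is NOS-null marrow replicate 1, and the rest of that group lay at 3129 to 6828. Markers of thymocytes summed to at most 8.51 in any library, and those of myeloid progenitors to at most 213, in NOS-null marrow replicate 1. Sums of the alveolar macrophage, plasma cell and T cell lists overlapped between the groups. The alveolar macrophage and plasma cell lists each held 1 gene that fell and 1 that rose. All 4 T cell markers had a positive change, with 0 of 4 passing. No defining marker in the lists was at 0 in every library. The part of these cells in the members' values was not tested.

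**Figure D4:**
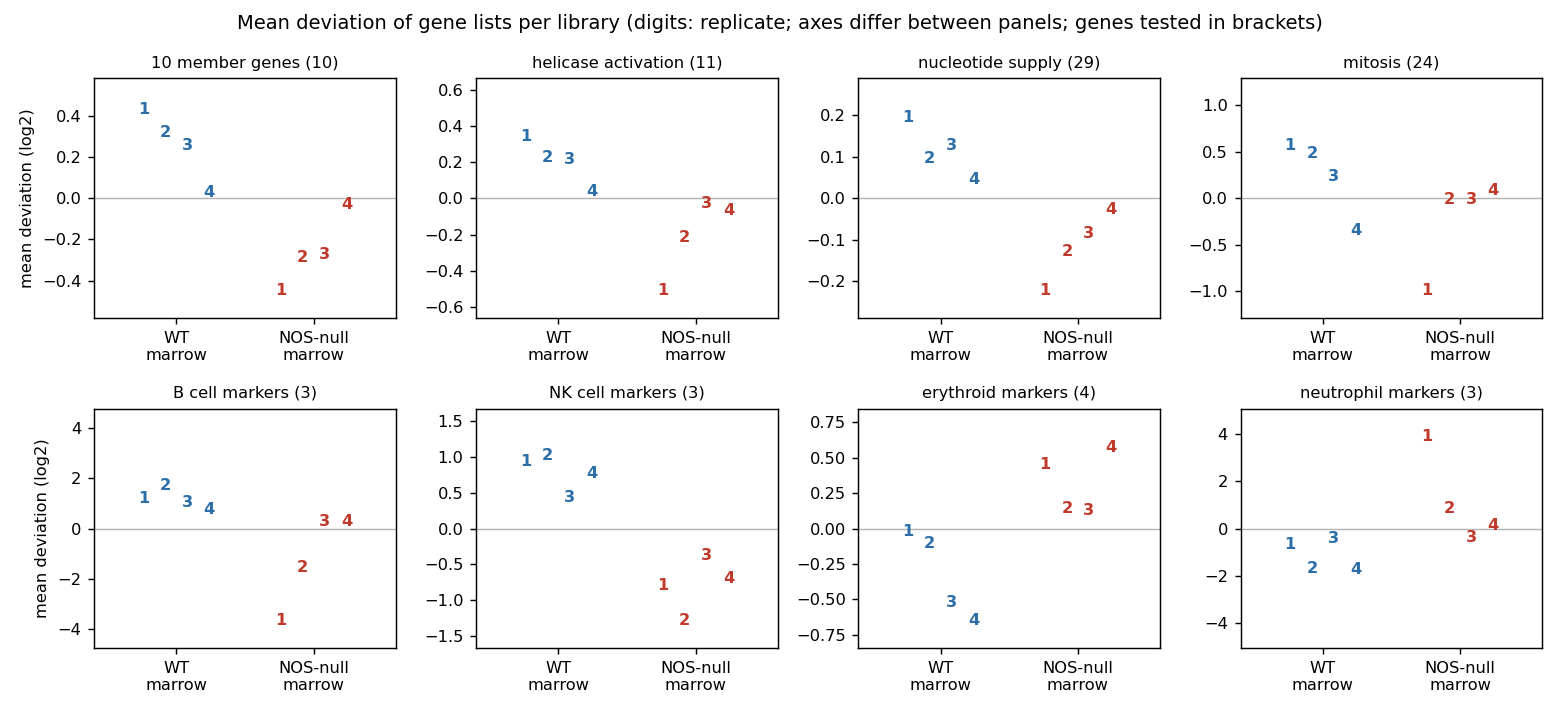
Mean deviation (vertical axis, log2, 0 is the mean over 8 libraries) of 4 replication and division lists and 4 marker lists in each library. Digits are replicate numbers, and the vertical scale differs between panels. For the members and the nucleotide supply, helicase activation, B cell and NK cell lists, every WT marrow library is above every NOS-null marrow library. For the erythroid and neutrophil lists every WT marrow library is below, for neutrophils by a narrow gap. The mitosis list overlaps.

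The calls changed with the libraries that entered the fit. Without NOS-null marrow replicate 2, or without WT marrow replicate 1, 2 or 3, limma called 0 of the 10 members, while 8 of 10 were lower at an unadjusted p under 0.05 each time. At that unadjusted threshold 10.2, 9.83, 11.6 and 11% of all tested genes were lower in these 4 fits, and 13.3% with all libraries. In the same fits 95, 71, 81 and 87 of all genes were called, in place of 567, and 0.293, 0.193, 0.228 and 0.25% of tested genes were called lower. Adjusted p-values of Mcm2 then ran from 0.0582 to 0.0735 and its log2 change from −0.98 to −0.90. Without NOS-null marrow replicates 1 and 2 together, limma called 0 members, 7 of 10 were lower at an unadjusted p under 0.05 (8.51% of tested genes), and the members' median log2 change was −0.37, with 0.6% of tested genes called lower. In the fits without the first NOS-null marrow library and without the fourth WT marrow library, Mcm2, Mcm3, Mcm5 and Mcm6 passed and Pcna did not (adjusted p = 0.0618 and 0.051), with 1.74 and 0.735% of tested genes called lower. Without NOS-null marrow replicate 3 the 5 calls stood (2.78% of tested genes called lower). Without NOS-null marrow replicate 4 Tyms passed as well, which made 6 (2.76%). Of the 7 other genes that fell or rose in the lists, apart from Cdkn1a and E2f2, none passed in the 4 fits that called 0 members. In all 16 alternatives each of the 10 members kept a negative change.

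**Figure D5:**
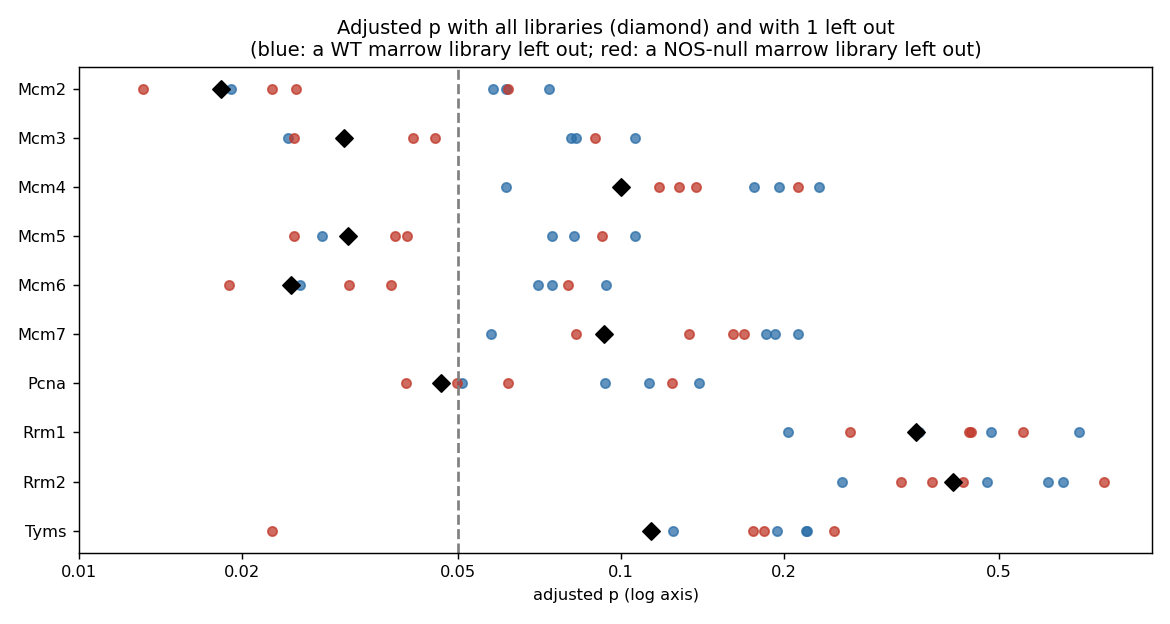
Benjamini-Hochberg adjusted p from limma (horizontal axis, log scale) for each member with all 8 libraries (black diamond) and with 1 library left out (8 circles, blue where a WT marrow library and red where a NOS-null marrow library is left out). The dashed line is 0.05. Mcm2, Mcm3, Mcm5 and Mcm6 each pass in 4 of the 8 fits, Pcna in 2 and Tyms in 1.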

How the data were processed

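RNA of whole lungs was sequenced as 8 libraries, 4 per group. Per the labels' protocols, mRNA was purified on magnetic beads (RNA integrity numbers 7.8 to 8.2), made into cDNA libraries with a KAPA kit and read as single reads of 75 bases. Per the submitters' processing notes the tools were CASAVA 1.8.2, TopHat2 2.0.13, Bowtie2 2.2.3, SAMtools 0.1.19 and Cufflinks 2.2.1 on mm10. Annotation, strand setting and filters were not stated there. The gene table deposited by the authors holds a signal on the read count scale, divided by 1 factor per library, and their second deposited table holds FPKM. Whole reads could not be recovered from it for a count model.

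The count-scale values were increased by a pseudocount of 1 and log2-transformed. Genes with at least 10 in at least 4 libraries (14008) were fitted with limma 3.58.1 in R 4.3.3 (trend on, not robust, no covariate). Error is the SD, and intervals are 95% intervals of that fit. FPKM served for levels between genes and for 2 ratios, each compared by an exact permutation test of 70 assignments. The titles number the libraries of a group without naming animals, so p-values then cover only spread among these libraries, which may be technical. No batch is given in the labels. Positions are from GENCODE M21 (GRCm38, the assembly of mm10) and promoters from RefSeq (GRCm38.p6). The promoter strand was checked by matching the last bases of a window to transcripts, which succeeded for 8 of 10 member windows. It did not succeed for Mcm5 and Mcm6, whose stretches are printed above. The fit was tested on simulated data.

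The members and lists were chosen with earlier results of these data known. The lists are origin licensing, helicase activation, MCM paralogues, polymerases with clamp loader, fork factors, nucleotide supply, G1 to S regulators, replication chromatin, replication stress with repair, and mitosis. Named are all members, each called gene of a list, up to 3 further genes of smallest p per list, and the 6 genes most like the members' mean deviation. Rrm2b is named for its ratio, and Nos genes and markers as checks, outside this rule. A few genes of the lists are not reported here and were left out of the lists' counts and sums. Ticrr had no row under that symbol. Alternatives were other pseudocounts (0.5 and 5), no filter, median-of-ratios rescaling, quantile normalization, the FPKM table, the replicate number as a block, and leaving out libraries.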

Additional observations from a re-analysis of the deposited data

Results flagged for a closer look

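In 3 of 42 groups of 4 values 1 library stood apart from the other 3, by a gap to its nearest neighbour that was large against the range of the group (Dixon's criterion at 95%). Chance alone marks about 1 in 20 groups. For Mcm7 it was WT marrow replicate 4, at 242 scaled reads against 305 to 315 in the other 3. For Tyms it was NOS-null marrow replicate 4, at 208 against 106 to 109.7. For Nme1 it was WT marrow replicate 1, at 649.8 against 526 to 543. Without the library that stood apart the log2 change was −0.43 for Mcm7 (limma adjusted p = 0.0576), −0.90 for Tyms (0.0227) and −0.54 for Nme1 (0.0925).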

How the results depend on the processing

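Pseudocounts of 0.5 and 5, median-of-ratios rescaling, quantile normalization and the FPKM table each left the same 5 members called, and without the filter Pcna was lost (limma adjusted p = 0.0553). Without the filter Cdc6, Cdc45 and Atic were lost too (limma adjusted p = 0.0693, 0.0721 and 0.0556), and with the FPKM table Cdc6 (0.0532). Leaving out 1 library gave 71 to 798 genes called by limma, 0 to 6 members and 2 to 12 genes of the other lists, against 567, 5 and 9. Leaving out NOS-null marrow replicates 1 and 2 together gave 181 genes, 0 members (7 at an unadjusted p under 0.05) and 2 list genes, with fewer samples. With the replicate number as a block the counts were 135, 0 members (8 at an unadjusted p under 0.05) and 3. Deviations of same-numbered libraries correlated at −0.0027 to 0.17, and those of libraries with unlike numbers at −0.18 to 0.11. Not every library correlated best with its own number. The labels give no pairing, and so loose a check cannot exclude it. The Rrm2 to Rrm1 difference ran from −0.1946 to 0.0487 with 1 library left out, turning to 0.0487 without NOS-null marrow replicate 1, and the Rrm2b to Rrm2 difference from 0.14 to 0.58. With the block they were −0.11 and 0.42 (exact sign-flip permutation p = 0.625 and 0.375). With 4 pairs that test cannot reach a p under 0.05. With 4 libraries per group the 95% interval was narrowest for Mcm4 (−0.49 to −0.07) and widest for Tyms (−1.18 to −0.14) on the log2 scale.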
